A study of Homo sapiens with 24 samples.

Results

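The libraries described here are the 4 that set hnRNPM siRNA_3 directly against SRSF1 siRNA_3, out of 24 libraries in the series. They are grouped here with the mock libraries titled jan as the jan set, because the labels of those mock libraries name both siRNAs as the ones they control for; the knockdown titles carry no set name. They were chosen by their column names, 2 for hnRNPM siRNA_3 and 2 for SRSF1 siRNA_3, each numbered n1 and n2. SKOV3.ip1 is a human ovarian carcinoma cell line, used at passages 28 to 40. The series depleted 4 RNA-binding proteins, RBFOX2, hnRNPC, hnRNPM and SRSF1, with 2 siRNAs each, and its title concerns how RBFOX2 and partner proteins set splicing outcomes. Cells received 100 nM of siRNA with Lipofectamine and RNA was taken 72 h later. Mock cells received Lipofectamine without siRNA, and the mock jan libraries (2) serve both knockdowns of this set. Total RNA was depleted of ribosomal RNA, fragmented and copied by TGIRT, a thermostable group II intron reverse transcriptase that also reads structured small RNAs. The samples are described as biological replicates, and the labels do not say how cultures were paired beyond the shared numbers. With a knockdown on both sides, the direct comparison asks how the transcriptome differs between cells short of hnRNPM and cells short of SRSF1.

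hnRNPM is an RNA-binding protein of the heterogeneous nuclear ribonucleoprotein group that binds GU-rich sequences in introns, and it is a member of the large assembly of splicing regulators (LASR) to which RBFOX proteins attach. SRSF1 is the founding SR protein, with RNA recognition motifs and an arginine-serine tail; it binds purine-rich exonic enhancers, promotes exon inclusion, and also acts in mRNA export, translation and decay. The deposited values are gene totals as TPM, a length-scaled abundance normalised to a fixed total per library, so exon choice itself is not measured here, only the level of each gene's RNA. In lysates of many cells, fewer cells holding an RNA and less of it per cell cannot be told apart.

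Each siRNA lowered its own target, and each target lay near mock in the other knockdown. HNRNPM stood at 12.5 and 11.3 scaled TPM with hnRNPM siRNA_3, against 41.7 and 33.7 with SRSF1 siRNA_3 and 41.6 and 39.2 in mock jan (scaled TPM are TPM divided by a factor per library, the median ratio to all libraries). SRSF1 stood at 220 and 189 scaled TPM with hnRNPM siRNA_3, against 44.9 and 40.0 with SRSF1 siRNA_3 and 212 and 188 in mock jan. The groups did not overlap for either gene, and the 2 genes moved in opposite directions. On the log2(scaled TPM + 1) scale, used for every difference below, hnRNPM siRNA_3 minus SRSF1 siRNA_3 came to -1.58 (SE 0.140) for HNRNPM and 2.24 (SE 0.206) for SRSF1. The limma adjusted p was 2.07e-05 for HNRNPM and 2.46e-05 for SRSF1, with limma fitted over all 24 libraries in 12 groups and p-values adjusted by Benjamini-Hochberg.

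**Figure D1:**
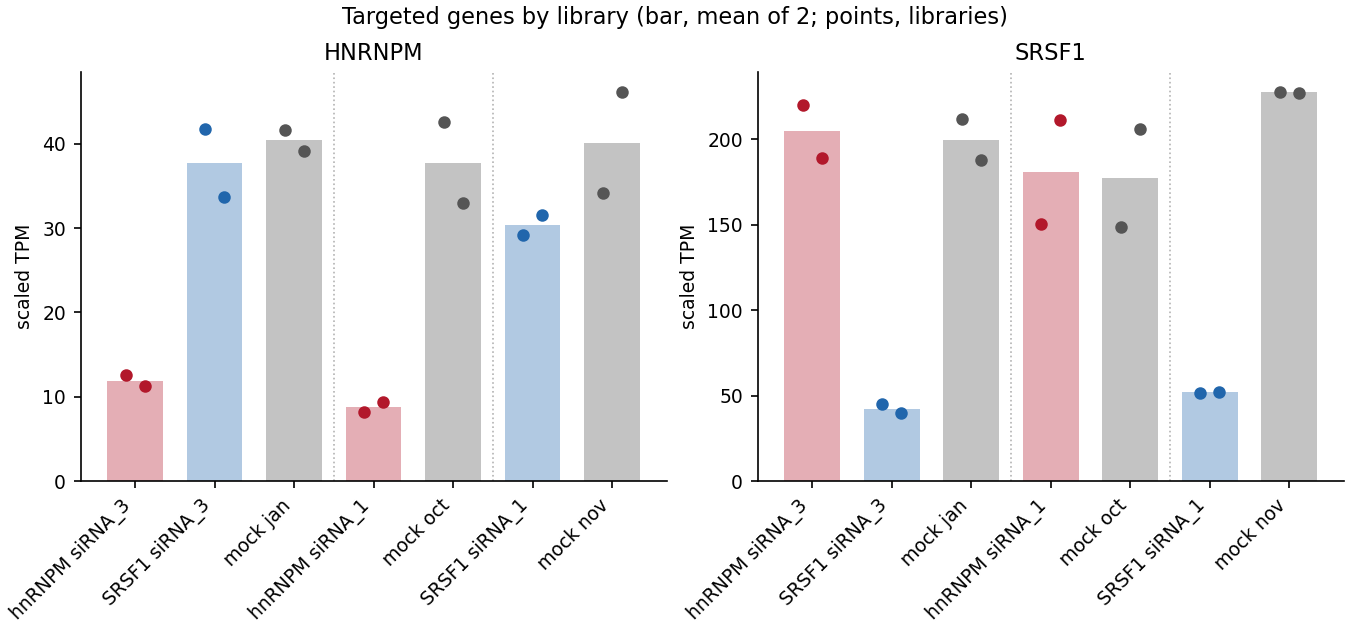
Scaled TPM of HNRNPM (left) and SRSF1 (right) in the jan set and in the sets of the other siRNAs; bars are means of 2 libraries and points are single libraries. HNRNPM is low in both hnRNPM siRNA_3 libraries (12.5 and 11.3) and SRSF1 is low in both SRSF1 siRNA_3 libraries (44.9 and 40.0). Within the jan set each stays near mock in the other knockdown. With SRSF1 siRNA_1, HNRNPM is at 29.1 and 31.5, below both mock nov libraries (34.1 and 46.2).

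Markers of ovarian carcinoma lines were present in all 6 libraries of the jan set. Of 10 ovarian carcinoma line markers, 8 passed the filter on low values (at least 1 TPM in 2 libraries) and 2, WT1 and MUC16, did not. Their summed level ran from 827 to 951 scaled TPM with hnRNPM siRNA_3, 766 to 779 with SRSF1 siRNA_3 and 694 to 716 in mock jan, most of it ERBB2. No fibroblast marker of 8 and no blood or endothelial marker of 7 exceeded 0.211 scaled TPM in any of the 4 knockdown libraries. The summed fibroblast level was 0.506 to 0.569 with hnRNPM siRNA_3, 0.401 to 0.446 with SRSF1 siRNA_3 and 0.362 to 0.395 in mock jan; the blood and endothelial sum was 0.0492 to 0.0808, 0.0653 to 0.159 and 0.0755 to 0.137, with CD3E and HBB at 0. Small structured RNAs took 63.0% to 65.7% of TPM with hnRNPM siRNA_3, 65.1% to 66.4% with SRSF1 siRNA_3 and 62.4% to 64.5% in mock jan. The depth of the libraries is unknown, since TPM keep none. One library, hnRNPM siRNA_3 replicate 2, stood apart from the other jan libraries in base composition. For each library, deviations of protein-coding genes from their means over all 24 libraries were rank-correlated with GC content. The correlation was 0.02 in hnRNPM siRNA_3 replicate 2 and -0.49 in replicate 1. It was -0.32 and -0.43 in the SRSF1 siRNA_3 libraries and -0.59 and -0.40 in mock jan. In this respect hnRNPM siRNA_3 replicate 2 lay nearest the series mean, and the other jan libraries lay away from it. Counts, and calls of named genes, that change without hnRNPM siRNA_3 replicate 2 are given so beside them.

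Between hnRNPM siRNA_3 and SRSF1 siRNA_3, 1132 of 16994 tested genes differed (6.66%). A gene was called when its limma adjusted p was under 0.05 and both same-numbered pairs had the same sign, and 63.2% of all tested genes met the second condition alone. Relative to SRSF1 siRNA_3, 611 genes were higher with hnRNPM siRNA_3 (3.60%) and 521 were lower (3.07%). At an unadjusted p under 0.05 there were 3479. Most differences were modest: the median was 0.49 among the higher genes and -0.44 among the lower ones, and 34 higher and 23 lower genes exceeded 1 in size. In all 1132 the 2 libraries of one knockdown lay wholly above or below those of the other, as they did for 48.2% of all tested genes.

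The count depended on the libraries fitted. It fell to 366 without hnRNPM siRNA_3 replicate 2, to 635 without hnRNPM siRNA_3 replicate 1, to 470 without SRSF1 siRNA_3 replicate 1 and to 416 without SRSF1 siRNA_3 replicate 2; fitted on the 4 libraries alone, with 2 residual degrees of freedom, it was 0 (HNRNPM and SRSF1 each at adjusted p = 0.0872), and on the 6 jan libraries it was 260. With the TPM as deposited, not rescaled, 215 genes were called and 73.5% of them were higher, against 54.0% after scaling.

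**Figure D2:**
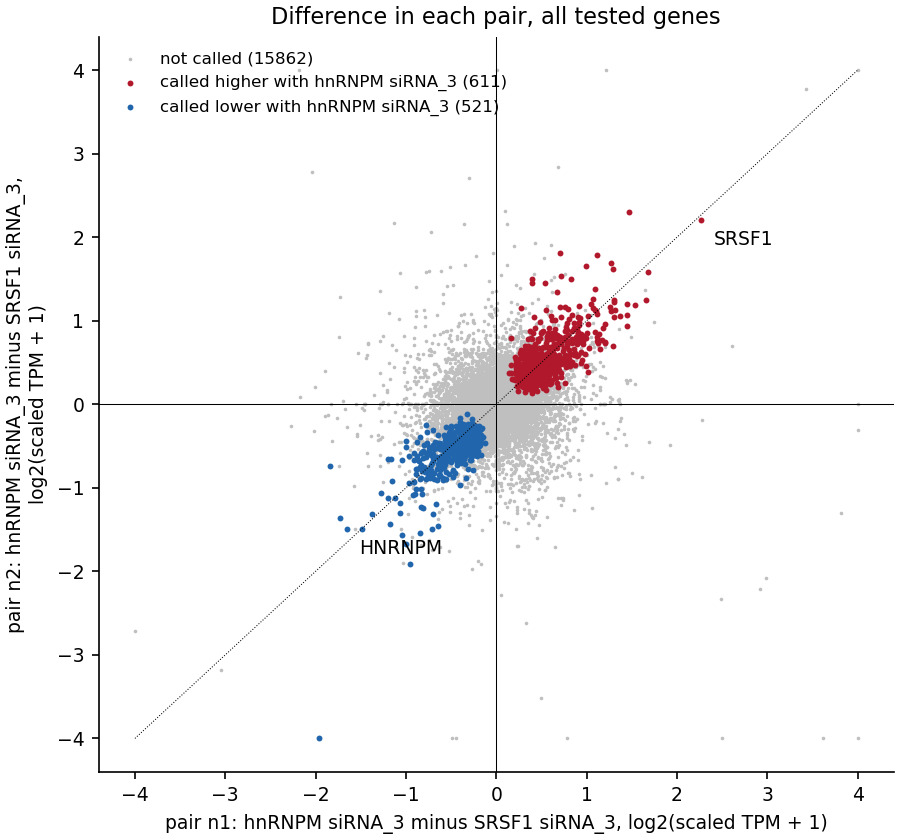
Difference between hnRNPM siRNA_3 and SRSF1 siRNA_3 in pair n1 (horizontal) and pair n2 (vertical) on the log2(scaled TPM + 1) scale for all 16994 tested genes; values beyond the frame are drawn at its edge. The 611 called higher and 521 called lower genes lie along the diagonal, with SRSF1 and HNRNPM near opposite ends.

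Against mock jan, 48 genes differed with hnRNPM siRNA_3 (0.282%), 15 of them higher (0.0883%) and 33 lower (0.194%). With SRSF1 siRNA_3 552 differed (3.25%), 242 higher (1.42%) and 310 lower (1.82%). That split depended on the scaling: with TPM as deposited 134 genes differed, 15 higher and 119 lower, and with libraries set to one total of all but small structured RNAs 446 differed, 134 higher and 312 lower. Without any one of the 4 libraries in each comparison, hnRNPM siRNA_3 had 10 to 15 calls and SRSF1 siRNA_3 had 94 to 186. These comparisons share the mock libraries, and each shares its knockdown libraries with the direct contrast, so levels are given side by side and no overlap is read from them. The 611 higher genes had a median difference from mock of 0.13 with hnRNPM siRNA_3 and -0.36 with SRSF1 siRNA_3. The 521 lower genes had -0.14 with hnRNPM siRNA_3 and 0.30 with SRSF1 siRNA_3.

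Among the named higher genes, S100A2, KRT7 and MYEOV had the SRSF1 siRNA_3 libraries as the lowest of the set. S100A2, an EF-hand calcium-binding protein of epithelia, was at 23.6 and 21.6 scaled TPM with hnRNPM siRNA_3, against 6.67 and 6.56 with SRSF1 siRNA_3 and 15.5 and 13.9 in mock jan. KRT7, a keratin of simple epithelia, was at 81.3 and 76.3, against 36.9 and 35.5 with SRSF1 siRNA_3 and 65.1 and 55.2 in mock. MYEOV was at 19.0 and 22.8, against 7.16 and 6.75 with SRSF1 siRNA_3 and 13.4 and 15.6 in mock. All 3 ran in the same order, hnRNPM siRNA_3 above mock and mock above SRSF1 siRNA_3. For S100A2 and MYEOV hnRNPM siRNA_3 minus mock did not pass the test (limma adjusted p = 0.718 and 0.393). SRSF1 siRNA_3 minus mock passed for MYEOV (limma adjusted p = 0.00488) and not for S100A2 (0.0888). The direct differences were 1.63 (SE 0.315, adjusted p = 0.00602) for S100A2, 1.10 (SE 0.154, adjusted p = 0.000739) for KRT7 and 1.45 (SE 0.162, adjusted p = 0.000112) for MYEOV.

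PTGIS, the prostacyclin synthase, was at 28.0 and 30.9 scaled TPM with hnRNPM siRNA_3, against 12.6 and 13.6 with SRSF1 siRNA_3 and 22.0 and 24.4 in mock jan, a difference of 1.11 (SE 0.129, adjusted p = 0.000177). TAGLN, the actin-binding protein transgelin, was at 8.70 and 8.81, against 3.62 and 3.08 with SRSF1 siRNA_3 and 5.33 and 6.57 in mock, a difference of 1.17 (SE 0.220, adjusted p = 0.00522). AMTN, the secreted enamel protein amelotin, was at 20.7 and 14.8, against 6.51 and 5.97 with SRSF1 siRNA_3 and 16.2 and 10.0 in mock, a difference of 1.36 (SE 0.359, adjusted p = 0.0334). For AMTN the hnRNPM siRNA_3 and mock libraries overlapped and only the SRSF1 siRNA_3 pair stood apart. The TAGLN call was lost without SRSF1 siRNA_3 replicate 2 (adjusted p = 0.0567) and the AMTN call without any one of the 4 libraries (0.0819 to 0.188).

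FTSJ3 and CTH showed the hnRNPM siRNA_3 level at mock and the SRSF1 siRNA_3 level below it. FTSJ3, a nucleolar methyltransferase of ribosomal RNA maturation, was at 12.8 and 13.6 scaled TPM with hnRNPM siRNA_3, against 5.57 and 5.59 with SRSF1 siRNA_3 and 13.1 and 13.3 in mock jan. CTH, the cystathionine gamma-lyase that makes cysteine, was at 26.6 and 25.3, against 12.6 and 12.5 with SRSF1 siRNA_3 and 26.5 and 24.6 in mock. The direct differences were 1.11 (SE 0.0913, adjusted p = 9.94e-06) for FTSJ3 and 0.99 (SE 0.129, adjusted p = 0.000466) for CTH. With SRSF1 siRNA_3 both fell relative to mock, by 1.11 for FTSJ3 and by 0.97 for CTH; hnRNPM siRNA_3 minus mock was 0.00 and 0.02 for the same genes.

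ZNF548, IGKV1OR-2 and TMEM14D were higher with hnRNPM siRNA_3 than in mock; the SRSF1 siRNA_3 libraries lay below mock for ZNF548 and TMEM14D and on both sides of it for IGKV1OR-2. ZNF548, a KRAB zinc finger protein, was at 9.55 and 9.50 scaled TPM with hnRNPM siRNA_3, against 3.25 and 3.80 with SRSF1 siRNA_3 and 4.41 and 4.69 in mock jan (difference 1.22, SE 0.0802, adjusted p = 1.28e-06). IGKV1OR-2, an immunoglobulin kappa variable pseudogene on chromosome 9, was at 34.8 and 28.0, against 10.3 and 11.2 with SRSF1 siRNA_3 and 10.4 and 10.5 in mock (difference 1.45, SE 0.133, adjusted p = 2.46e-05). Reads of such a pseudogene may be split among related copies, so its value is uncertain. With the other siRNAs IGKV1OR-2 was at 23.5 and 23.6 with hnRNPM siRNA_1, a difference of 0.89 from its mock (mock oct). It was at 20.4 and 19.5 with SRSF1 siRNA_1, against 12.6 and 12.1 in its mock (mock nov), a difference of 0.65. IGKV1OR-2 thus lay above mock in both siRNA_1 knockdowns. The contrast of hnRNPM siRNA_1 with SRSF1 siRNA_1, each minus its mock, was 0.24 (limma adjusted p = 0.732). APCDD1L-AS1, an antisense RNA, was at 8.24 and 7.95, against 2.82 and 3.12 with SRSF1 siRNA_3 and 5.41 and 4.63 in mock (difference 1.20, SE 0.118, adjusted p = 4.12e-05); it passed the test against mock in both knockdowns, higher with hnRNPM siRNA_3 (0.60) and lower with SRSF1 siRNA_3 (-0.60). The labels do not state whether strand was used in counting, so reads of antisense genes cannot be told from those of their partners.

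TMEM14D and TMEM14B are shown as sequence because long stretches of both genes are identical. TMEM14B encodes a small multi-pass membrane protein on chromosome 6, and TMEM14D is its processed pseudogene on chromosome 10. The opening 120 bases of each, 5′ to 3′ from the start codon of TMEM14B in GENCODE release 29 transcripts, differ at the 2 bases in capitals.
TMEM14B: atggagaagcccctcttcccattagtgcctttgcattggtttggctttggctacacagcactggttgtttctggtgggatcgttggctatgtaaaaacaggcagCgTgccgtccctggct
TMEM14D: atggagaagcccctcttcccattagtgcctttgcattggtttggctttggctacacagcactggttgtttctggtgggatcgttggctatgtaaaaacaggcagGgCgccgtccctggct
Over the whole 345 bases of TMEM14D the genes were 97.7% identical, with 8 mismatches, and 43.5% of the 31-base words of TMEM14D (137 of 315) also occur in TMEM14B transcripts. TMEM14B was at 67.2 and 59.0 scaled TPM with hnRNPM siRNA_3, against 34.2 and 34.5 with SRSF1 siRNA_3 and 45.9 and 42.9 in mock jan (difference 0.86, SE 0.120, adjusted p = 0.000746). TMEM14D was at 30.9 and 26.6, against 11.4 and 12.3 with SRSF1 siRNA_3 and 15.4 and 16.3 in mock (difference 1.21, SE 0.154, adjusted p = 0.000361). Both genes ran in the same order across the 3 groups, and how reads were shared between them was not tested.

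**Figure D3:**
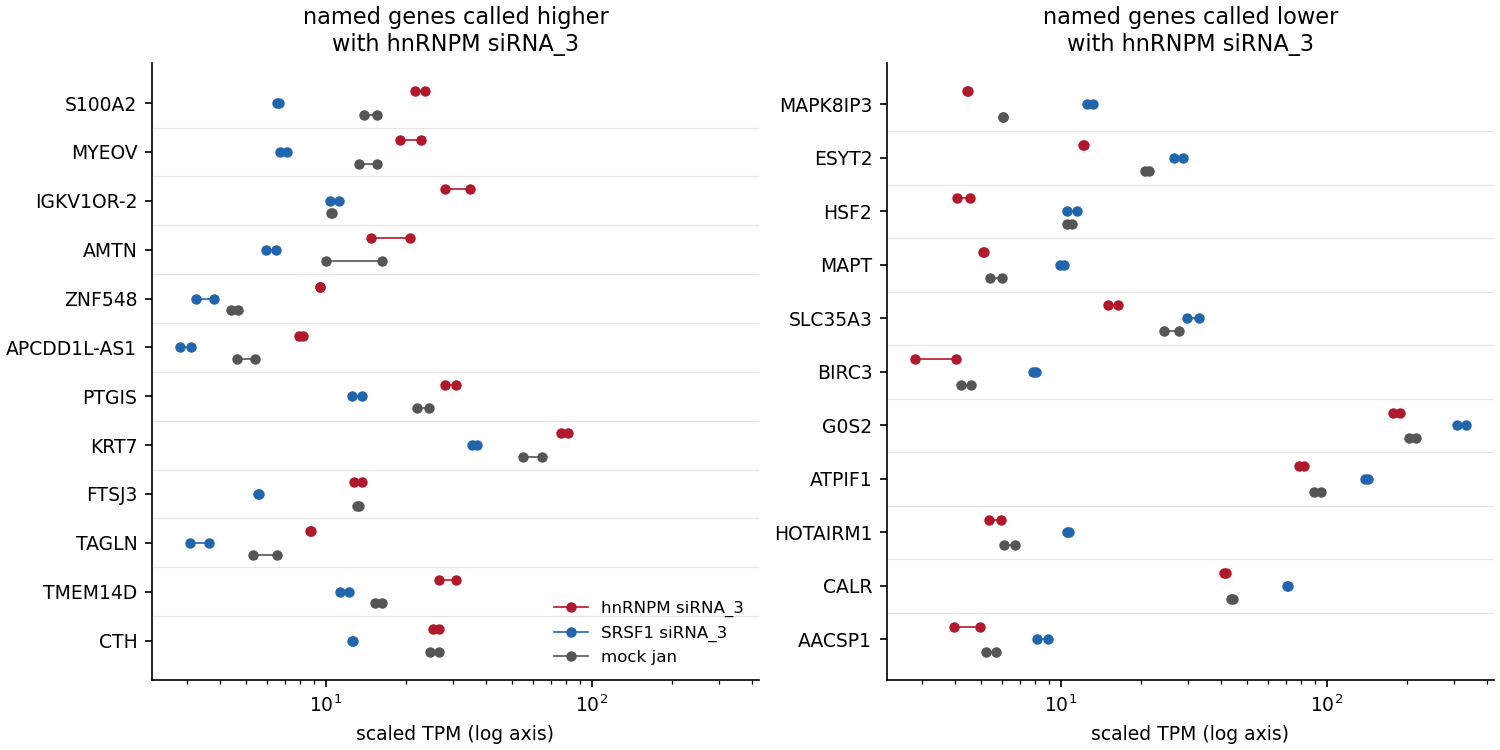
Scaled TPM on a log axis of 12 higher (left) and 11 lower (right) called genes with the largest smaller pair difference, with the 2 libraries of each group joined by a line. In each gene the hnRNPM siRNA_3 pair and the SRSF1 siRNA_3 pair are separate, and the position of mock jan between or beside them varies from gene to gene.

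Among the lower genes, HSF2, ESYT2 and SLC35A3 fell with hnRNPM siRNA_3 relative to mock. HSF2, a heat shock transcription factor, was at 4.55 and 4.07 scaled TPM with hnRNPM siRNA_3, against 10.6 and 11.5 with SRSF1 siRNA_3 and 11.0 and 10.6 in mock jan. ESYT2, a tether between endoplasmic reticulum and plasma membrane, was at 12.2 and 12.1, against 26.5 and 28.7 with SRSF1 siRNA_3 and 20.7 and 21.5 in mock. SLC35A3, a Golgi transporter of UDP-N-acetylglucosamine, was at 16.3 and 15.1, against 29.7 and 32.9 with SRSF1 siRNA_3 and 27.7 and 24.5 in mock. SRSF1 siRNA_3 libraries lay at the mock level for HSF2 and above it for ESYT2. The direct differences were -1.18 (SE 0.113, adjusted p = 3.47e-05) for HSF2, -1.12 (SE 0.0681, adjusted p = 8.28e-07) for ESYT2 and -0.95 (SE 0.122, adjusted p = 0.000392) for SLC35A3.

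In the largest group of named lower genes, SRSF1 siRNA_3 stood above mock while the difference of hnRNPM siRNA_3 from mock did not pass the test. MAPK8IP3, a scaffold of JNK signalling and kinesin transport, was at 4.46 and 4.46 scaled TPM with hnRNPM siRNA_3, against 13.2 and 12.6 with SRSF1 siRNA_3 and 6.07 and 6.05 in mock jan (difference -1.35, SE 0.136, adjusted p = 4.88e-05). BIRC3, a ubiquitin ligase that restrains cell death and is induced by NF-kB, was at 4.04 and 2.84, against 7.86 and 8.08 with SRSF1 siRNA_3 and 4.22 and 4.61 in mock (difference -1.03, SE 0.152, adjusted p = 0.00106). The hnRNPM siRNA_3 and mock libraries were separate for both genes, with hnRNPM siRNA_3 the lower. G0S2, an inhibitor of adipose triglyceride lipase, was at 189 and 177, against 334 and 309 with SRSF1 siRNA_3 and 215 and 203 in mock. ATPIF1, an inhibitor of the mitochondrial ATP synthase, was at 81.8 and 78.6, against 143 and 139 with SRSF1 siRNA_3 and 94.6 and 89.8 in mock. CALR, a calcium-binding chaperone of the endoplasmic reticulum, was at 41.9 and 41.0, against 70.6 and 71.2 with SRSF1 siRNA_3 and 43.8 and 44.5 in mock. In these 3 abundant genes the SRSF1 siRNA_3 pair was the highest of the set.

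The same arrangement held for HOTAIRM1, a long non-coding RNA of the HOXA cluster, at 5.94 and 5.38 scaled TPM with hnRNPM siRNA_3, against 10.7 and 10.6 with SRSF1 siRNA_3 and 6.70 and 6.13 in mock jan. AACSP1, a pseudogene on chromosome 5, was at 4.98 and 3.97, against 8.94 and 8.17 with SRSF1 siRNA_3 and 5.25 and 5.73 in mock. Only 0.215% of its 31-base words occur in transcripts of AACS, the gene it derives from. The differences of G0S2, ATPIF1, CALR, HOTAIRM1 and AACSP1 lay between -0.76 and -0.81. MAPT, which encodes the microtubule protein tau, was at 5.09 and 5.15, against 10.3 and 9.94 with SRSF1 siRNA_3 and 5.44 and 6.03 in mock, a difference of -0.86 (SE 0.226, adjusted p = 0.0323). The MAPT call was lost without any one of the 4 libraries (adjusted p from 0.12 to 0.147). With TPM as deposited, MAPT (0.23), G0S2 (0.0541), ATPIF1 (0.121), CALR (0.0681) and AACSP1 (0.0682) also missed the threshold. None of G0S2, ATPIF1, CALR, HOTAIRM1, AACSP1 and MAPT was called with siRNA_1, where their contrasts ran from -0.37 to -0.21 (adjusted p of 0.6 to 0.767), nor was SLC35A3 (-0.50, adjusted p = 0.244).

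Small structured RNAs contributed few calls, 6 higher and 10 lower of 1324 tested (1.21%), against 8.34% of protein-coding genes. SNORD3B-1, a copy of the U3 small nucleolar RNA, was at 25.7 and 0.0711 scaled TPM with hnRNPM siRNA_3, against 103 and 496 with SRSF1 siRNA_3 and 85.5 and 345 in mock jan. Its libraries differed more within a group than many genes did between groups; U3 copies share reads, and the call was lost without hnRNPM siRNA_3 replicate 2 or SRSF1 siRNA_3 replicate 2 (adjusted p of 0.173 to 0.211). RNU6-930P, a U6 snRNA copy, was at 2.21 and 0.835, against 6.28 and 3.98 with SRSF1 siRNA_3 and 3.79 and 3.10 in mock, and lost its call without hnRNPM siRNA_3 replicate 2 or SRSF1 siRNA_3 replicate 1 (0.112 to 0.133). MIR3657 was at 1.39 and 2.15, against 0.202 and 0 with SRSF1 siRNA_3 and 0 and 0.753 in mock, and lost it without any one of the 4 libraries (0.0897 to 0.242). The other 5 named small RNAs were annotated copies under the shared symbols Y_RNA and snoU13, all with a mean below 2 scaled TPM over the 4 libraries; 3 of them lost the call without hnRNPM siRNA_3 replicate 2 (adjusted p of 0.0552 to 0.136).

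A contrast from separate libraries used siRNA_1 for both proteins: hnRNPM siRNA_1 minus mock oct, less SRSF1 siRNA_1 minus mock nov, with 2 libraries in each of these 4 groups. It called 163 genes (0.959%), 63 higher (0.371%) and 100 lower (0.588%), or 40 higher and 102 lower with one total of all but small structured RNAs; without any one of its 8 libraries the count ran from 57 to 155. Of the 1132 genes called with siRNA_3, 1006 (88.9%) had the same sign with siRNA_1, against 64.6% of all tested genes. Of the 1132, 91 were called in the same direction with both siRNAs, 42 higher and 49 lower, and 2 were called in opposite directions. The 91 were 8.04% of the siRNA_3 calls and 55.8% of the siRNA_1 calls. Without hnRNPM siRNA_3 replicate 2 they were 59 and without SRSF1 siRNA_3 replicate 2 they were 57. Without hnRNPM siRNA_1 replicate 3 they were 37, without SRSF1 siRNA_1 replicate 1 they were 53, and without SRSF1 siRNA_1 replicate 2 they were 35. Without mock oct replicate 1 they were 54 and without mock nov replicate 1 they were 45.

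**Figure D4:**
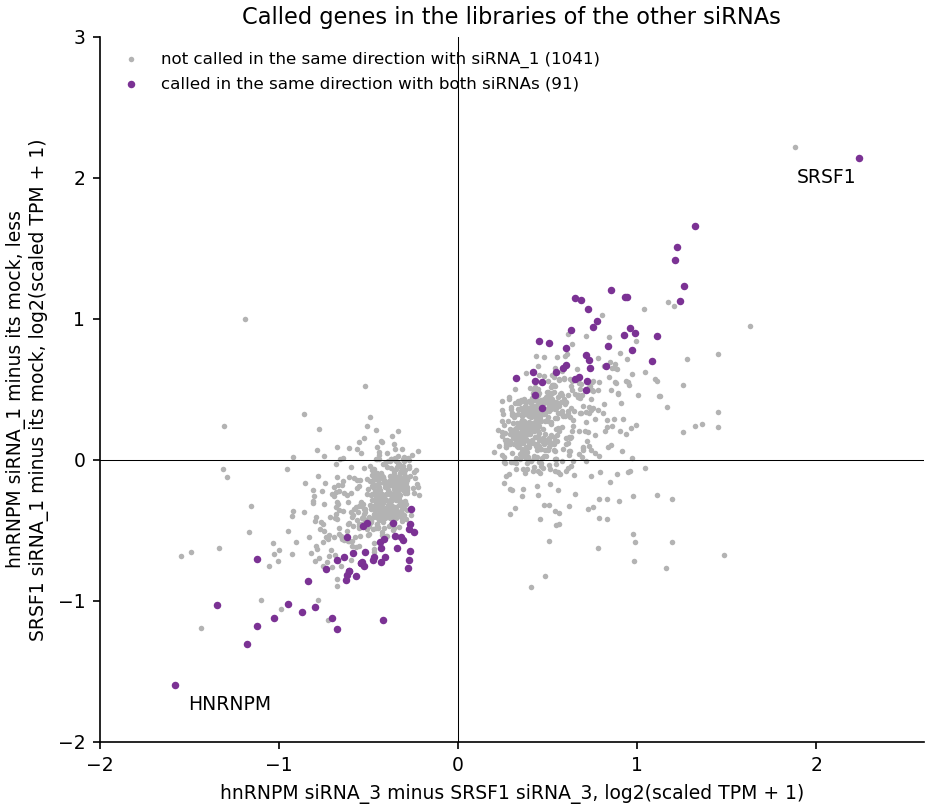
The 1132 called genes by their difference with siRNA_3 (horizontal) and in the siRNA_1 contrast (vertical), on the log2(scaled TPM + 1) scale; SNORD3B-1 lies left of the frame at -5.41. The 91 genes called in the same direction with both siRNAs are in purple, and most grey points (not called in the same direction) fall in the same 2 quadrants.

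Genes called with both siRNAs included the 2 targets, ZNF548, HSF2, ESYT2, FTSJ3, CTH and MAPK8IP3. HNRNPM differed by -1.60 (SE 0.198, adjusted p = 0.00182) and SRSF1 by 2.14 (SE 0.291, adjusted p = 0.00239) in the siRNA_1 contrast. ZNF548 was at 14.0 and 12.3 scaled TPM with hnRNPM siRNA_1, against 4.51 and 4.25 in mock oct, and at 3.93 and 4.48 with SRSF1 siRNA_1, against 4.48 and 4.76 in mock nov, a contrast of 1.51 (SE 0.113, adjusted p = 1.76e-05). The hnRNPM siRNA_1 libraries were thus the high ones, with the other 6 between 3.93 and 4.76. HSF2 was at 3.41 and 3.94 with hnRNPM siRNA_1, against 9.30 and 12.0 in mock oct, and at 12.4 and 11.5 with SRSF1 siRNA_1, against 12.7 and 11.4 in mock nov, a contrast of -1.31 (SE 0.160, adjusted p = 0.00182). ESYT2 was at 10.6 and 11.1 with hnRNPM siRNA_1, against 20.0 and 22.8 in mock oct, and at 29.3 and 30.8 with SRSF1 siRNA_1, against 25.1 and 24.8 in mock nov, a contrast of -1.18 (SE 0.0963, adjusted p = 2.65e-05). For HSF2 and ESYT2 the hnRNPM siRNA_1 libraries were the low ones.

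In FTSJ3, CTH and MAPK8IP3 the SRSF1 siRNA_1 libraries lay outside the range of the other 6. FTSJ3 was at 10.8 and 11.4 scaled TPM with hnRNPM siRNA_1, against 14.3 and 12.5 in mock oct, and at 5.11 and 5.80 with SRSF1 siRNA_1, against 12.2 and 13.9 in mock nov (contrast 0.88, adjusted p = 0.00315). CTH was at 16.8 and 20.4 with hnRNPM siRNA_1, against 20.5 and 26.4 in mock oct, and at 13.4 and 11.2 with SRSF1 siRNA_1, against 33.1 and 26.8 in mock nov (contrast 0.90, adjusted p = 0.0278). MAPK8IP3 was at 7.84 and 7.07 with hnRNPM siRNA_1, against 8.45 and 6.14 in mock oct, and at 12.0 and 13.4 with SRSF1 siRNA_1, against 5.18 and 5.91 in mock nov (contrast -1.03, adjusted p = 0.0169). BIRC3 (-1.12, adjusted p = 0.0196), TMEM14B (1.20, adjusted p = 0.00273), TMEM14D (1.42, adjusted p = 0.00428) and TM9SF4, a membrane protein of the nonaspanin family (-1.05, adjusted p = 0.0485), were also called with siRNA_1. With siRNA_3, TM9SF4 was at 3.41 and 4.12 for hnRNPM, against 7.63 and 6.90 for SRSF1 and 5.97 and 5.92 in mock jan, a difference of -0.80 whose call was lost without hnRNPM siRNA_3 replicate 1 or SRSF1 siRNA_3 replicate 1 (adjusted p of 0.0787 to 0.0819). Over the 91 genes, hnRNPM lay further from mock than SRSF1 with both siRNAs in 29, SRSF1 in 52, and the order differed between siRNAs in 10; these distances come from the libraries that chose the genes.

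Of the named higher genes, S100A2, MYEOV, KRT7, TAGLN, AMTN and PTGIS were not called with siRNA_1. The siRNA_1 contrast was 0.95 for S100A2, 0.75 for MYEOV, 0.58 for KRT7, 0.37 for TAGLN, 0.25 for AMTN and -0.25 for PTGIS, with limma adjusted p between 0.173 and 0.925. A test of the difference between the siRNA_3 and siRNA_1 contrasts, in the same fit, called 24 genes (0.141%), 19 with a higher siRNA_3 value (0.112%) and 5 with a lower one (0.0294%); with TPM as deposited it called 2, both higher. PTGIS (difference 1.36, SE 0.224, adjusted p = 0.0273) and APCDD1L-AS1 (difference 1.48, SE 0.205, adjusted p = 0.0124) were among them. S100A2, MYEOV, KRT7, TAGLN and AMTN were not (adjusted p of 0.778 to 0.999). Without any one of the 12 libraries the count ran from 1, without SRSF1 siRNA_1 replicate 2, to 17.

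Lists of splicing machinery genes are read against the 6.66% of all tested genes called. With few calls due in short lists, a missed threshold does not show an unchanged level. Of 14 SR protein genes, SRSF1 was higher with hnRNPM siRNA_3 and SRSF5 was lower, at 75.5 and 62.9 scaled TPM with hnRNPM siRNA_3, against 92.7 and 89.1 with SRSF1 siRNA_3 and 74.7 and 78.8 in mock jan (difference -0.39, SE 0.0953, adjusted p = 0.0217). HNRNPM was the one call among 27 hnRNP genes and among 9 genes of LASR partners. In the core spliceosome list, U2AF2, the large subunit of the factor that reads the polypyrimidine tract, was higher at 24.5 and 25.7 with hnRNPM siRNA_3, against 15.4 and 15.2 with SRSF1 siRNA_3 and 21.0 and 21.4 in mock (difference 0.68, SE 0.0864, adjusted p = 0.000372). EFTUD2, a GTPase of the U5 particle, was lower at 17.0 and 18.6, against 21.6 and 20.2 with SRSF1 siRNA_3 and 17.3 and 16.7 in mock (difference -0.22, SE 0.0608, adjusted p = 0.0415), and the other 29 tested members were not called. None of 7 SR protein kinase and import genes passed; CLK3 (0.25) and SRPK1 (-0.17) had the largest differences among them. SMG9, a cofactor of the SMG1 kinase, was the one call of 16 nonsense-mediated decay and exon junction genes (0.47, adjusted p = 0.00262). Medians of these 6 lists lay between -0.08 and 0.12, beside -0.01 for all tested genes. In the siRNA_1 contrast none of SRSF5, U2AF2, EFTUD2 and SMG9 was called in the direction seen with siRNA_3. SRSF5 lost its call without hnRNPM siRNA_3 replicate 2 or either SRSF1 siRNA_3 library (adjusted p of 0.0828 to 0.22), and EFTUD2 without any one of the 4 libraries (0.0619 to 0.265). With TPM as deposited SRSF5, EFTUD2 and SMG9 missed the threshold (0.472, 0.802 and 0.0837).

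In genes described as splicing targets, CAMK2D, a calcium-dependent kinase whose splicing SRSF1 regulates in mouse heart, was the one call of 14 tested SRSF1 targets (0.51, adjusted p = 0.0366, lost without any one of the 4 libraries at 0.107 to 0.178). Of 5 hnRNPM targets, 2 passed the filter: IL6 (0.14, adjusted p = 0.867) and CD44 (-0.06, adjusted p = 0.898). These lists stand beside 6.66% of all tested genes called.

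Genes of interferon signalling had calls in both directions, 1 higher and 3 lower of 20 tested. Of all tested genes 3.60% were higher and 3.07% lower. HERC5, the ligase for ISG15, was lower at 17.3 and 14.6 scaled TPM with hnRNPM siRNA_3, against 22.5 and 23.6 with SRSF1 siRNA_3 and 16.3 and 16.0 in mock jan (difference -0.51, SE 0.0927, adjusted p = 0.0043). For HERC5 the hnRNPM siRNA_3 libraries lay on both sides of mock and the SRSF1 siRNA_3 libraries were above it. IFIT2 was lower (-0.45, adjusted p = 0.0436) and IFI27 was higher, at 13.2 and 18.1, against 6.52 and 7.45 with SRSF1 siRNA_3 and 12.9 and 13.7 in mock (1.04, adjusted p = 0.0139). The HERC5 call was lost without hnRNPM siRNA_3 replicate 2 (adjusted p = 0.0708), the IFI27 call without hnRNPM siRNA_3 replicate 2 or either SRSF1 siRNA_3 library (0.0572 to 0.143), and the IFIT2 call without any one of the 4 libraries (0.125 to 0.206).

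Of 20 tested NF-kB and inflammatory genes, BIRC3 was lower and IL1A, the cytokine interleukin-1 alpha, was higher. Over all tested genes 6.66% were called. IL1A was at 47.2 and 35.5 scaled TPM with hnRNPM siRNA_3, against 21.6 and 19.0 with SRSF1 siRNA_3 and 43.3 and 35.7 in mock jan (0.98, SE 0.230, adjusted p = 0.0187; lost without hnRNPM siRNA_3 replicate 1 or either SRSF1 siRNA_3 library at 0.0651 to 0.142). In the siRNA_1 contrast IL1A had the other sign, -0.72, without passing the test. Medians were -0.02 for the interferon list and -0.10 for the NF-kB list. In the siRNA_1 contrast the interferon list had a median of -0.05 and 1 lower call. The NF-kB list had a median of -0.39 and 2 lower calls there.

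Heat shock genes had 3 lower and no higher members of 16 tested, with a median of -0.21, where 3.07% of all tested genes were lower. In the siRNA_1 contrast the list had a median of -0.38 and 2 lower calls. Beside HSF2, they were DNAJA1, an HSP70 co-chaperone, and HSPA4L, an HSP110-type chaperone. DNAJA1 was at 30.3 and 28.9 scaled TPM with hnRNPM siRNA_3, against 35.9 and 39.6 with SRSF1 siRNA_3 and 36.2 and 37.0 in mock jan (difference -0.34, SE 0.0971, adjusted p = 0.0482), and it was called with siRNA_1 as well (-0.62, adjusted p = 0.0445). HSPA4L was at 0.702 and 0.486, against 1.16 and 1.23 with SRSF1 siRNA_3 and 0.873 and 0.735 in mock (difference -0.46, adjusted p = 0.013). DNAJA1 lost its call without any one of the 4 libraries (adjusted p of 0.0866 to 0.271), and HSPA4L without hnRNPM siRNA_3 replicate 2 or either SRSF1 siRNA_3 library (0.0596 to 0.138). Of 21 unfolded protein and ATF4 stress genes, SESN2, a sestrin that restrains mTORC1, was higher (0.50, adjusted p = 0.012) and HSP90B1, the chaperone GRP94, was lower (-0.46, adjusted p = 0.0485). Each lost its call without hnRNPM siRNA_3 replicate 2 or either SRSF1 siRNA_3 library (SESN2 at 0.0705 to 0.136, HSP90B1 at 0.174 to 0.326).

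EIF4G3, a scaffold of the cap-binding complex EIF4F, was the one call of 20 translation control genes, beside 6.66% of all tested genes. It was below mock in both knockdowns. It was at 7.40 and 7.55 scaled TPM with hnRNPM siRNA_3, against 11.6 and 12.6 with SRSF1 siRNA_3 and 18.1 and 16.3 in mock jan. The 3 groups did not overlap. The direct difference was -0.63 (SE 0.105, adjusted p = 0.00254), and the siRNA_1 contrast was -0.85 (SE 0.149, adjusted p = 0.0109). With TPM as deposited the direct difference missed the threshold (0.219).

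Of 13 tested epithelial markers 3 were called higher, as were 3 of 12 mesenchymal markers, with no lower call in either list; 3.60% of all tested genes were higher. In the siRNA_1 contrast the epithelial list had a median of 0.27 and no call, and the mesenchymal list had a median of -0.17 and 1 lower call. The keratins KRT19 and KRT8 joined KRT7: KRT19 was at 86.2 and 89.8 scaled TPM with hnRNPM siRNA_3, against 54.9 and 54.1 with SRSF1 siRNA_3 and 61.8 and 62.0 in mock jan (0.68, SE 0.123, adjusted p = 0.00393). KRT8 was at 64.9 and 65.8, against 47.6 and 49.6 with SRSF1 siRNA_3 and 59.9 and 58.1 in mock (0.42, SE 0.106, adjusted p = 0.0268). The mesenchymal calls included TAGLN and SNAI2, the transcription factor Slug (0.97, adjusted p = 0.00556). AXL, a receptor tyrosine kinase, was at 34.5 and 30.6, against 18.0 and 16.6 with SRSF1 siRNA_3 and 34.1 and 26.7 in mock (0.87, adjusted p = 0.0395), and with LATS2, a Hippo pathway kinase (0.27, adjusted p = 0.0342), made up the 2 calls of 15 YAP and matricellular targets. Medians were 0.06, 0.25 and 0.17 for the 3 lists. None of KRT19, KRT8, SNAI2, AXL and LATS2 was called with siRNA_1 (adjusted p of 0.503 to 0.99). KRT8 and AXL lost their siRNA_3 calls without any one of the 4 libraries (adjusted p of 0.097 to 0.188). LATS2 lost it without either hnRNPM siRNA_3 library or SRSF1 siRNA_3 replicate 2 (0.13 to 0.314), and SNAI2 without hnRNPM siRNA_3 replicate 1 or SRSF1 siRNA_3 replicate 2 (0.0558 to 0.069).

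CCND1, the G1 cyclin D1, was at 45.9 and 44.3 scaled TPM with hnRNPM siRNA_3, against 30.1 and 28.8 with SRSF1 siRNA_3 and 36.9 and 35.2 in mock jan (0.60, SE 0.112, adjusted p = 0.00496; 0.0512 without SRSF1 siRNA_3 replicate 2). Of the 19 ERK feedback and output genes, it and DUSP4, an ERK phosphatase (0.30, adjusted p = 0.0282), were higher and SPRY2, a feedback inhibitor of receptor signalling (-0.43, adjusted p = 0.0234), was lower; DUSP4 (0.0608 to 0.186) and SPRY2 (0.0531 to 0.164) lost the call without any one of the 4 libraries. No gene of the ERK list was called in the siRNA_1 contrast. HRK, a pro-apoptotic BH3-only protein, was the one call of 15 BCL2 family genes (0.58, adjusted p = 0.00474). Calls in the ERK, BCL2 family and snoRNA host gene lists stand beside 6.66% of all tested genes. ZFAS1, a snoRNA host RNA, was the one call of 15 host genes (0.45, adjusted p = 0.0471; 0.0986 to 0.263 without any one of the 4 libraries).

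With 6.66% of all tested genes called, and so few calls due in short lists, several programmes gave no call. They were 22 genes of G1/S and DNA replication, 24 of G2/M and mitosis, 24 of cholesterol synthesis and uptake, 24 of hypoxia and glycolysis, 13 of RNA interference and 22 replication-dependent histones. In the cell cycle lists the difference was -0.57 for CDC45, -0.24 for BIRC5 and -0.23 for NUSAP1. PMVK (0.38) and NSDHL (0.31) led the cholesterol list, ALDOC (-0.38) and P4HA1 (-0.37) the hypoxia list, and TNRC6C (-0.25) and AGO4 (0.23) the RNA interference list. The histone list had a median of -0.28, and its extreme member, HIST2H4A, was at 18.5 and 0.0578 scaled TPM with hnRNPM siRNA_3, against 159 and 8.61 with SRSF1 siRNA_3, and is listed at 0 in both mock jan libraries; histone genes have near-identical copies, so single values are uncertain. A missed threshold does not show that these levels were equal.

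**Figure D5:**
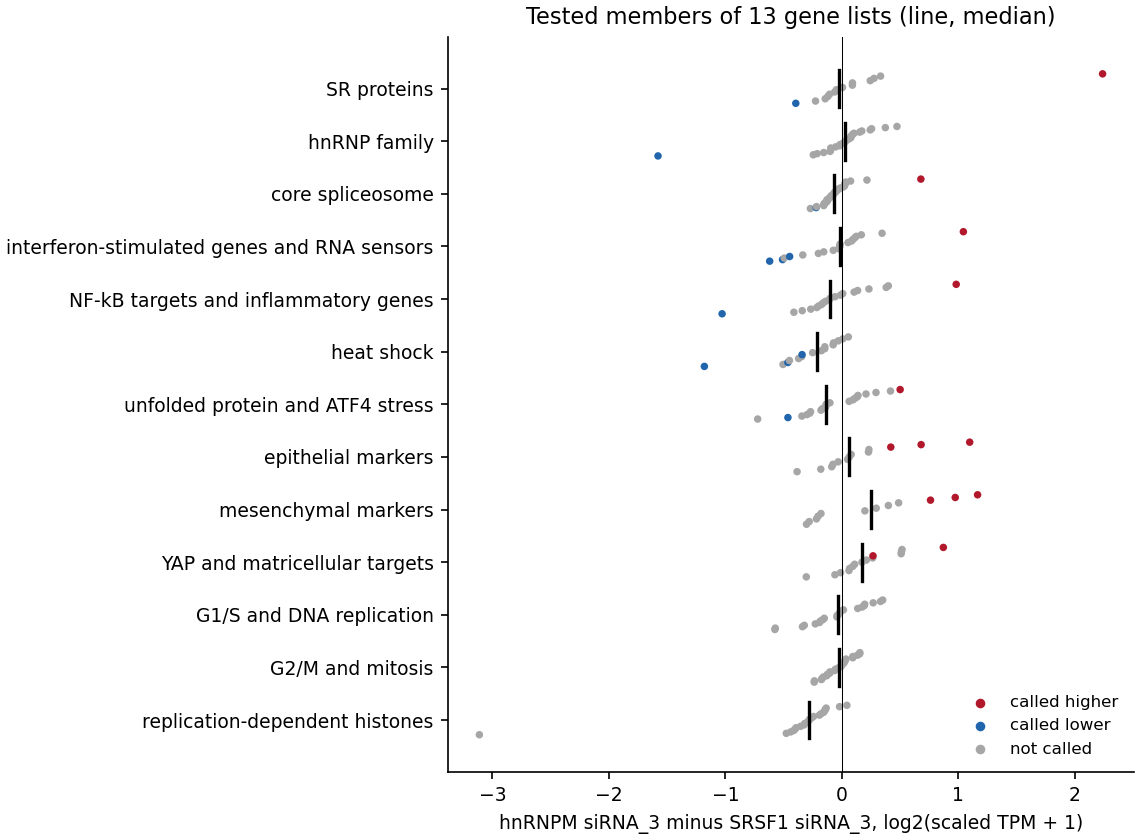
Difference between hnRNPM siRNA_3 and SRSF1 siRNA_3 on the log2(scaled TPM + 1) scale for each tested member of 13 gene lists; red points were called higher, blue lower and grey not called, and the black line is the list's median. Apart from SRSF1 and HNRNPM, called members are few in each list, and the medians run from -0.28 for histones to 0.25 for mesenchymal markers.

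Higher and lower genes differed in base composition. The median GC content of the transcripts of called protein-coding genes was 49.5% for the 501 higher genes and 43.6% for the 439 lower genes, against 47.6% for all 11270 tested. Transcript length had medians of 3635 and 4173 bases, against 3712 for all, and exon number had medians of 8 and 10, against 8. The rank correlation of the difference with GC content was -0.15 in pair n1 and 0.37 in pair n2. It was 0.13 for the siRNA_3 contrast and 0.13 for the siRNA_1 contrast. Whether this trend bears on the signs shared by the 2 contrasts was not tested. With a GC trend removed from each library 1637 genes were called, and 1066 of the 1132 kept their call; without hnRNPM siRNA_3 replicate 2, 347 of the 1132 did. The called share was 8.34% of protein-coding genes, 6.19% of long non-coding and other genes (56 higher, 41 lower of 1568) and 2.37% of pseudogenes (34 higher, 20 lower of 2277).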

How the data were processed

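The submitters' processing notes name the build hg19 (GRCh37), and list SAMtools 0.1.19.0, TopHat2 2.0.9, Trimmomatic 0.38, Bowtie2 2.1.0.0 and FastQC 0.10.1 with no roles. The authors deposited one table of TPM for 57773 genes in 24 libraries; the tool that made the TPM is not given in the sources used here. TPM were divided by median-ratio factors (0.664 to 1.41) taken over the 22727 genes above 0 in every library, and log2(scaled TPM + 1) was tested for the 16994 genes with at least 1 TPM in 2 libraries. limma 3.58.1 (R 4.3.3) fitted 12 groups over 24 libraries with an intensity trend (12 residual degrees of freedom), with Benjamini-Hochberg adjustment; the code was tested on simulated data. No 2 of the 24 libraries held identical values. Because TPM normalise each library to the same total, a shift in abundant RNAs moves all others. The split of the direct calls changed with the rescaling: 54.0% were higher after it and 73.5% with TPM as deposited. It also changed with the libraries fitted. The p-values set each difference against the spread within the 12 groups, pooled over all 24 libraries and not only the 4 compared.

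The named genes were HNRNPM and SRSF1; the 12 higher and 12 lower called genes with the largest smaller pair difference and a mean of at least 5 scaled TPM, without clone-based symbols and small structured RNAs; 4 small structured RNAs per direction by the same order; 5 per direction called with both siRNAs; and up to 4 called members of each of 28 gene lists, or the 2 largest differences where none was called. Some genes that met these rules are not reported here. Members and lists were chosen with earlier results of these data known. Transcript features and the sequences shown came from GENCODE release 29 (GRCh38) by gene ID, with 52338 of 57773 IDs matched; no coordinates were used. Alternatives changed the scaling, pseudocount, filter, model, GC trend, replicate block and libraries. Figures used matplotlib 3.10.9.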

Additional observations from a re-analysis of the deposited data

Results flagged for a closer look

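The hnRNPM minus SRSF1 difference itself differed between siRNA_3 and siRNA_1 in 24 genes (limma test of the difference, adjusted p under 0.05). Among the named genes these were APCDD1L-AS1, with a difference between the contrasts of 1.48 (adjusted p = 0.0124), and PTGIS, with 1.36 (adjusted p = 0.0273). APCDD1L-AS1 was 1.20 higher with hnRNPM siRNA_3 than with SRSF1 siRNA_3 and had -0.28 in the siRNA_1 contrast. PTGIS was 1.11 higher with hnRNPM siRNA_3 and had -0.25 in the siRNA_1 contrast. Genes chosen from the 24 after their values were seen include the matrix genes FN1 (difference 1.74), TNC (1.24) and COL4A1 (0.81), which were lower in the siRNA_1 contrast (-1.26, -0.88 and -0.77) and not called with siRNA_3. THSD7A (0.49 with siRNA_3, -0.82 with siRNA_1) and YWHAH (0.41 and -0.90) were the 2 genes called in opposite directions by both contrasts. The siRNAs of each protein were also transfected in different sets, so siRNA and set cannot be told apart.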

How the results depend on the processing

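Of 62 called named genes, 30 kept the call without each of the 4 libraries; 26 lost it with TPM as deposited, 25 on the 6 jan libraries and all 62 on the 4 libraries alone. Beside those given above, calls lost with TPM as deposited included MIR3657, TM9SF4, HERC5, IFIT2, SESN2, HSP90B1, HSPA4L and DNAJA1. KRT8, AXL, LATS2, SPRY2, DUSP4, ZFAS1 and CAMK2D lost theirs as well. Quantile normalisation, a pseudocount of 0.1, a filter at 5 TPM, no trend and robust moderation left the direct count between 883 and 1185. As deposited, the counts were 215 for hnRNPM siRNA_3 minus SRSF1 siRNA_3, 8 and 134 for hnRNPM siRNA_3 and SRSF1 siRNA_3 minus mock jan, 10 for siRNA_1, 2 for the difference between siRNAs and 6 called with both. The share of higher calls for SRSF1 siRNA_3 minus mock was then 11.2%, against 43.8% after scaling. With no filter, hnRNPM siRNA_3 minus mock had 98 and the difference 46; with libraries set to one total of all but small structured RNAs the difference had 14. With a GC trend removed, SRSF1 siRNA_3 minus mock had 923, siRNA_1 290, the difference 37 and both 166. On the 4 libraries alone the direct count was 0, with HNRNPM at -1.58 and SRSF1 at 2.24 (adjusted p = 0.0872 each); on the 6 jan libraries the counts were 260 direct, 7 and 20 against mock. Leaving out 1 library gave 366 to 635 direct, 10 to 15 and 94 to 186 against mock, 57 to 155 for siRNA_1, 1 to 17 for the difference and 35 to 81 for both; the lone sample is then assumed to vary like the other groups. The cause of these shifts was not tested beyond the fewer samples.

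The labels do not say what the replicate numbers mark, and each group here holds only 2. Their deviations correlated at 0.151 to 0.211 in the jan set, and at 0.0615 to 0.431 over the 13 pairs of groups in the series. With the replicate block the counts were 2209 direct (1127 of the 1132 among them), 118 and 1331 against mock, 433 for siRNA_1, 72 for the difference and 255 for both. With the block and a GC trend removed together they were 2874, 217, 1892, 790, 118 and 475. Depth is unknown, so how far few reads widen the error of low genes cannot be told.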

Other observations

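Of the 49 lower genes called with both siRNAs, 3 encode beta subunits of integrins, a group picked out after its values were seen. They are 3 of 8 integrin beta subunits tested, while 0.288% of all tested genes were lower with both siRNAs; the other 5 were not called with siRNA_3. ITGB6 was at 3.27 and 3.51 scaled TPM with hnRNPM siRNA_3, against 5.65 and 6.40 with SRSF1 siRNA_3 and 2.65 and 2.57 in mock jan (difference -0.68, adjusted p = 0.00578). ITGB8 was at 3.34 and 3.09, against 4.21 and 5.08 with SRSF1 siRNA_3 and 3.51 and 3.36 in mock (difference -0.42, adjusted p = 0.0179). ITGB5 was at 17.1 and 17.6, against 22.4 and 22.9 with SRSF1 siRNA_3 and 17.6 and 18.8 in mock (difference -0.36, adjusted p = 0.00539). In the siRNA_1 contrast they differed by -1.20, -1.13 and -0.45. Among the 42 higher genes, also picked after their values were seen, XPOT, the tRNA export receptor, was at 52.0 and 49.2, against 29.9 and 30.0 with SRSF1 siRNA_3 and 53.6 and 53.1 in mock (difference 0.74), and 32.9% of the 31-base words of its pseudogene XPOTP1 occur in XPOT. RFC1, the large subunit of the clamp loader, was at 20.6 and 18.4, against 8.35 and 8.98 with SRSF1 siRNA_3 and 20.0 and 18.1 in mock (difference 1.08).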
